A study of Homo sapiens with 6 samples.

Results

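The transcripts described here are those of 9 genes by which lung endoderm and the epithelium made from it are usually recognised. They are 6 transcription factors (NKX2-1, FOXA1, FOXA2, GATA6, SOX2 and SOX9) and 3 secreted lineage products (SFTPB, SFTPC and SCGB1A1). Each was found on the array as the only gene symbol of 1 probe set, which makes 9 of the 18417 genes tested. They were measured in H358, an established human line from a non-small cell lung cancer that grows as epithelium, in a line that stably expressed green fluorescent protein (GFP, 3 arrays) and one that stably expressed TwistER (3 arrays). TwistER joins the Twist transcription factor to the hormone-binding part of the estrogen receptor, which 4-hydroxytamoxifen (4OHT) switches on. Both lines received 100 nM 4OHT for 12 days, renewed at each passage, so the drug and the carrying of an inserted gene are shared by both groups. The submitters' titles place the GFP arrays before and the TwistER arrays after epithelial-mesenchymal transition (EMT). TwistER cells without 4OHT were not analysed here, and the sources used here do not say whether each line is a clone or a pool, or which promoter drives each insert. Differences are TwistER minus GFP on the log2 scale, and they compare the 2 lines, not the factor switched on against off.

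The embryonic foregut forms lung where NKX2-1 comes on in cells that already hold the forkhead factors FOXA1 and FOXA2, which open chromatin at endoderm genes, and the zinc finger factor GATA6. Within the growing lung, SOX2 marks the proximal airway epithelium and SOX9 the distal tips. NKX2-1, the FOXA factors and GATA6 then act on the promoters of surfactant proteins B and C (SFTPB and SFTPC), products of alveolar type 2 cells, and of the club cell secretory protein (SCGB1A1). Lung adenocarcinomas keep these factors to varying degrees.

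Sequences just before the start site were available for 5 of the 9 genes (RefSeq, GRCh38.p14), and 3 windows of 250 bases are shown. SOX2 and FOXA1 are shown because their levels differed without overlap between the lines, and Twist factors bind E-boxes, the letters CANNTG, which are in capitals. SOX2 at chr3:181711675-181711924 (plus strand) and FOXA1 at chr14:37595250-37595499 (minus strand) read:
SOX2: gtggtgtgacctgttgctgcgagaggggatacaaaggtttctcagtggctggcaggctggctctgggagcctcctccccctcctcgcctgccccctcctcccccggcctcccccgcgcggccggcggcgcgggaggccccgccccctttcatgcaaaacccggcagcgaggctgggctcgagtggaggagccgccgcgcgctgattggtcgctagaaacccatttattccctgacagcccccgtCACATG
FOXA1: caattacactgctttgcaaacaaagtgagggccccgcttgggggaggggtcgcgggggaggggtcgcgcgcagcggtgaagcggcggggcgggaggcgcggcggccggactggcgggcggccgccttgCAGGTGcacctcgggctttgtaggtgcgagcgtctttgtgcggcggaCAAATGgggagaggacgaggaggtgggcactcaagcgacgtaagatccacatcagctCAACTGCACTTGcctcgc
The SOX2 window held 1 E-box, CACATG, directly before the start site, and the FOXA1 window held 4, of which CAGGTG lies farthest from it. Genes whose groups overlapped held E-boxes too. The SFTPB window nearer to the coding region held 2, CAGGTG and CACCTG, and the other SFTPB window 1. The GATA6 window held 1, and the 2 NKX2-1 windows held 1 and 0. E-boxes were found in 61.8% of 35116 promoter windows of this length, and 4 or more in 3.35%. A match of letters is a description and does not show binding.
The third window belongs to SFTPB, whose promoter is a textbook target of both factor families, at chr2:85668200-85668449 (minus strand), the nearer to the coding region of 2 starts listed. Capitals mark the NKX2 core CAAG and the forkhead core, which is A or G, then C or T, then AAA, then C or T, then A; both were searched on both strands:
SFTPB: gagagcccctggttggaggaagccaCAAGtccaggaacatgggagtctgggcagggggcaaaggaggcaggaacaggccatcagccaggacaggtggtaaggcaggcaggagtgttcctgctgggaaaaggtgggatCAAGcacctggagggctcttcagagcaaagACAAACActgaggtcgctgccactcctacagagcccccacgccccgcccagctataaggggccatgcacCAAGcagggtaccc
It held 3 NKX2 cores and 1 forkhead core, ACAAACA. The FOXA1 window also held 1 forkhead core, GCAAACA, and 4 NKX2 cores, and the SOX2 window held 0 of either. The other SFTPB window held 1 NKX2 core and 0 forkhead cores. Of all windows, 80.9% held an NKX2 core and 22.0% a forkhead core.

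FOXA2 transcript was lower in the TwistER line and SOX2 transcript higher, while the other 4 factors and the 3 products showed no difference past the test. FOXA2 fell 1.94-fold and SOX2 rose 1.47-fold. Thus 2 of 9 genes (22.2%) passed the test, a limma p-value under 0.05 once adjusted over all genes by Benjamini and Hochberg, beside 8.83% of all genes tested, of which 4.72% rose and 4.11% fell. The groups did not overlap for FOXA2, SOX2 and FOXA1, 3 of 9 genes, where the share over all genes was 28.4%. The median difference of the 9 genes was 0.01, equal to that of all genes to 2 decimals.

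**Figure D1:**
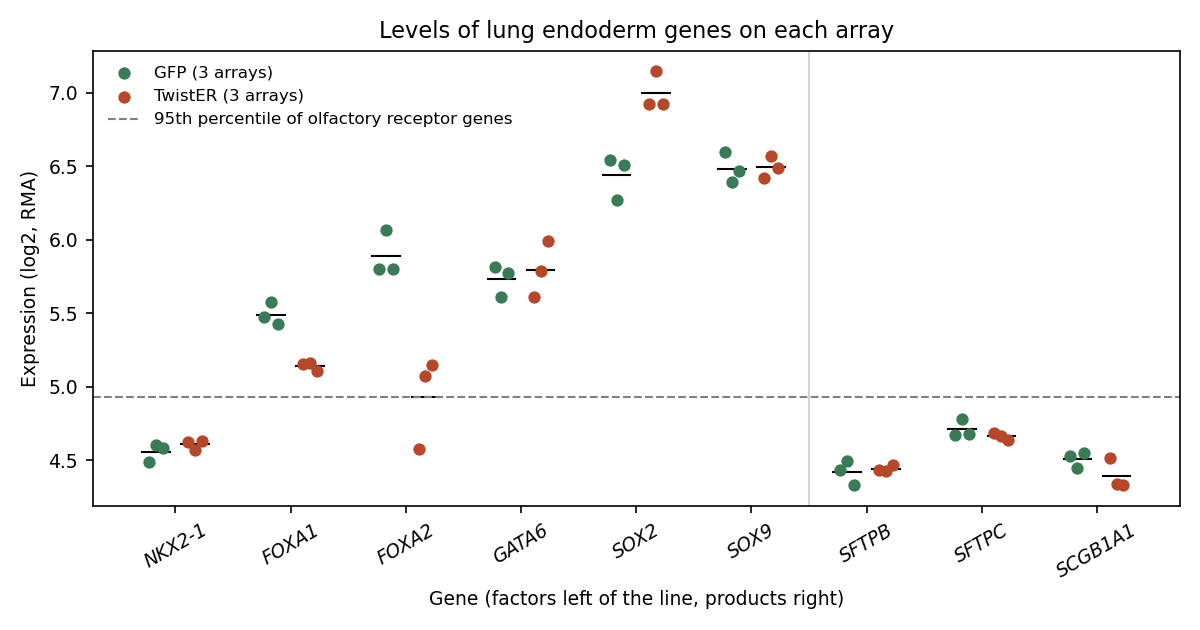
Expression (vertical axis, log2 RMA values) of the 9 genes on each of the 3 GFP and 3 TwistER arrays, with black bars at the group means and a dashed line at 4.93, the 95th percentile of olfactory receptor genes. The TwistER points of FOXA2 and FOXA1 lie below all their GFP points, those of SOX2 lie above, and NKX2-1 and the 3 products stay under the dashed line on all 6 arrays.

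Some whole-series facts bear on these values. Arrays of a group correlated at 0.982 to 0.996 over genes and arrays of different groups at 0.968 to 0.980. GFP replicate 1 stood apart, at 0.982 to 0.983 with the other GFP arrays, which correlated at 0.996 with each other. The epithelial markers EPCAM (12.06 ± 0.29) and KRT8 (9.49 ± 0.17) were bright in GFP and lower in TwistER (8.77 ± 0.11 and 8.79 ± 0.18, SD, n = 3), and E-cadherin (CDH1) fell from 10.09 ± 0.48 to 5.09 ± 0.19. The call on KRT8 was lost without GFP replicate 2 or 3 or TwistER replicate 2 (highest limma adjusted p = 0.0739). Human TWIST1 (0.27 ± 0.17 SE) and ESR1 (0.23 ± 0.12) did not pass. The sources do not say which part of the insert these probes cover, so they do not check the labels. The number of arrays limits the precision, and p-values measure the spread between these cultures only.

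NKX2-1, the homeodomain factor that defines the lung field, was dim in both lines. It read 4.49, 4.60 and 4.59 on the GFP arrays and 4.63, 4.57 and 4.63 on the TwistER arrays. The groups overlapped, and the difference was 0.05 ± 0.10 (SE, limma adjusted p = 0.841, 95% interval -0.18 to 0.28). To place such dim values, 356 olfactory receptor genes, which are not known to be made in lung epithelium, served as a reference: their median was 3.14 and their 95th percentile 4.93. NKX2-1 lay above 91.9% of them and below that percentile in both lines. Probe sets differ in affinity, so this gives no amount, and in this range background light compresses differences. RefSeq places 2 further transcripts across NKX2-1. One of them, NKX2-1-AS1, had a difference of -0.05 ± 0.17, and SFTA3 was not analysed here.

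FOXA2 had the largest difference of the 9 genes. It read 5.80, 6.07 and 5.80 in GFP and 4.57, 5.07 and 5.15 in TwistER, so that every TwistER array was lower than every GFP array, by at least 0.65. The difference was -0.96 ± 0.17 (SE, limma adjusted p = 0.00916), a fall of 1.94-fold with an interval of 1.49 to 2.54. Among the 757 genes that fell it ranked 225 by size. TwistER replicate 1 was the lowest of its group and widened its spread (SD 0.31, against 0.16 in GFP). FOXA2 passed with any single array left out, with differences of -1.07 to -0.78 and adjusted p-values up to 0.0384. Its TwistER mean of 4.93 lay at the 95th percentile of the olfactory receptor genes described above.

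FOXA1, the close relative of FOXA2, showed a smaller difference in the same direction that did not pass. It read 5.48, 5.58 and 5.43 in GFP and 5.15, 5.16 and 5.11 in TwistER, without overlap. The TwistER arrays lay within 0.06 of each other. The difference was -0.35 ± 0.10 (limma adjusted p = 0.0752), and its interval of -0.58 to -0.12, which is not adjusted for the number of genes, corresponds to 1.08-fold to 1.5-fold lower. Without GFP replicate 1 the difference was -0.36 and the adjusted p 0.0428. Leaving out that array raised the number of genes past the test from 1627 to 2773. Within each array, FOXA2 minus FOXA1 was 0.32, 0.49 and 0.38 in GFP and -0.58, -0.09 and 0.04 in TwistER. The FOXA2 difference was thus more negative by 0.61, with no overlap between the groups. A two-sided exact permutation test gave p = 0.10, the smallest that 3 against 3 arrays allow, as it did for each of the 3 pairs of members compared in this way (adjusted 0.10).

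GATA6, a zinc finger factor needed for endoderm and for branching of the lung, read 5.81, 5.61 and 5.78 in GFP and 5.61, 5.79 and 5.99 in TwistER. The groups overlapped. Its difference of 0.06 ± 0.13 did not pass (limma adjusted p = 0.842), and the interval of -0.23 to 0.36 leaves room for changes up to 1.29-fold.

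SOX2, the HMG-box factor of the proximal airway and of squamous lung tumours, rose. It read 6.54, 6.27 and 6.51 in GFP and 6.93, 7.14 and 6.92 in TwistER. Every TwistER array exceeded every GFP array, by at least 0.39 (log2). The difference was 0.56 ± 0.12 (SE, limma adjusted p = 0.0268), which is 1.47-fold with an interval of 1.21 to 1.795, and it ranked 725 among the 870 rises. The direction was the same in each of 15 alternative fits (0.47 to 0.63), but the call was less firm than that of FOXA2. It was lost without GFP replicate 2 (limma adjusted p = 0.0980) or 3 (0.0587), and without TwistER replicate 1 (0.0753), 2 (0.125) or 3 (0.0729). A limma fit that also held the replicate number as a term lost it too (adjusted p = 0.0575). Leaving out GFP replicate 1 gave 0.0149. SOX2 lies inside the long transcript SOX2-OT, which was not analysed here, and the sources do not give the part that the SOX2 probes cover.

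**Figure D2:**
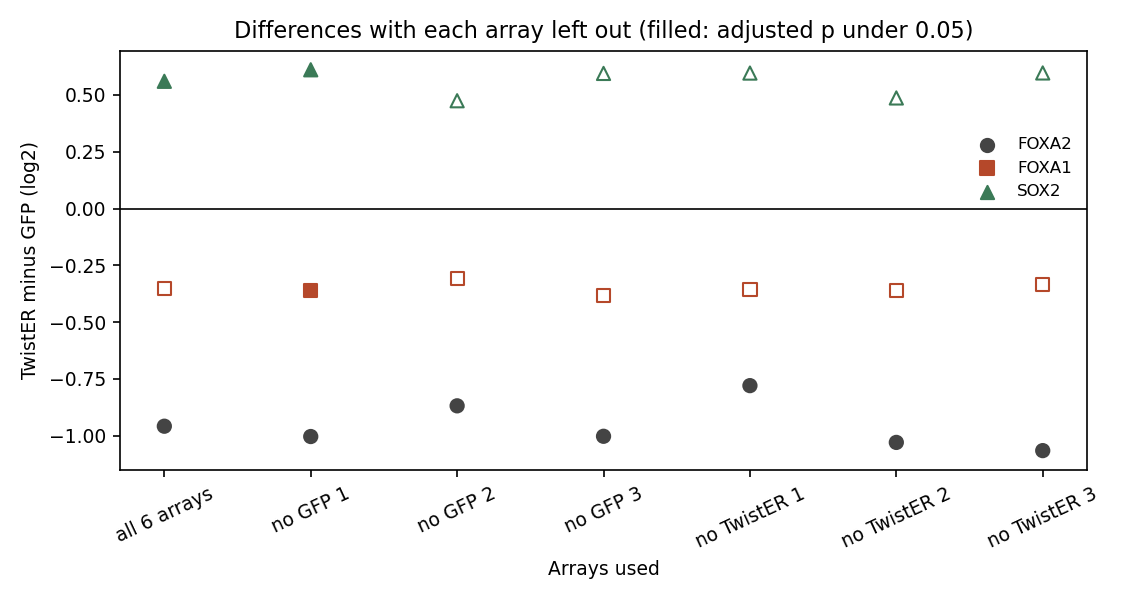
TwistER minus GFP (vertical axis, log2) for FOXA2, FOXA1 and SOX2 with all 6 arrays and with each array left out in turn (horizontal axis); filled symbols have a limma adjusted p under 0.05. FOXA2 is filled throughout between -1.07 and -0.78, SOX2 with all arrays and without GFP replicate 1, and FOXA1 only without GFP replicate 1.

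SOX9, the HMG-box factor of the distal lung tips, had means of 6.48 ± 0.10 and 6.49 ± 0.08 (SD, n = 3). It read 6.59, 6.39 and 6.46 in GFP and 6.42, 6.57 and 6.49 in TwistER, with full overlap. The difference was 0.01 ± 0.11 (limma adjusted p = 0.974, 95% interval -0.24 to 0.26), and its sign turned when array medians were subtracted (-0.020). Within arrays, SOX2 minus SOX9 was -0.06, -0.12 and 0.04 in GFP and 0.51, 0.57 and 0.43 in TwistER. The SOX2 difference exceeded that of SOX9 by 0.55, without overlap (two-sided exact permutation p = 0.10, the smallest possible). SOX2 minus FOXA2 moved by 1.52 between the groups, from 0.55 ± 0.30 in GFP to 2.07 ± 0.29 in TwistER (SD, n = 3). Since SOX2 and FOXA2 each separated the groups, in opposite directions, this difference had to separate them too.

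The lineage products were dim in both lines. Surfactant protein B (SFTPB) read 4.44, 4.49 and 4.33 in GFP and 4.43, 4.43 and 4.47 in TwistER. The groups overlapped, with a difference of 0.02 ± 0.10 (limma adjusted p = 0.934) that turned sign under another quantile normalization (-0.0060), with medians subtracted (-0.0070) and with cyclic loess (-0.0097). Surfactant protein C (SFTPC) read 4.67, 4.78 and 4.68 in GFP and 4.68, 4.67 and 4.64 in TwistER, a difference of -0.05 ± 0.10 (adjusted p = 0.851). The club cell protein SCGB1A1 read 4.53, 4.45 and 4.55 in GFP and 4.51, 4.34 and 4.33 in TwistER, again with overlap, a difference of -0.11 ± 0.11 (adjusted p = 0.632). None of the products passed, at an unadjusted p under 0.05 either (0 of 3). All 3 products and NKX2-1 lay below the 95th percentile of olfactory receptor genes in both groups. Over the 6 genes with differences under 0.12 in size, no 95% interval reached beyond 1.29-fold in either direction, as far as dim probe sets can show a change. In these bulk cultures, fewer cells holding a transcript and less of it per cell cannot be told apart.

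**Figure D3:**
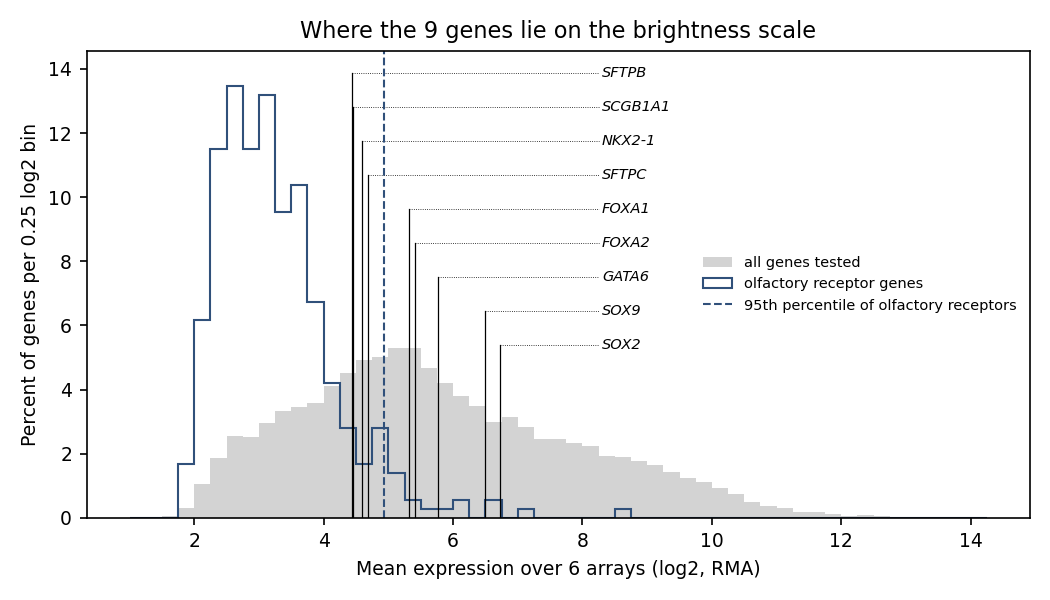
Mean expression over the 6 arrays (horizontal axis, log2) for all genes tested (grey bars) and 356 olfactory receptor genes (blue outline), as percent of genes per bin; black lines mark the 9 genes. SFTPB, SCGB1A1, NKX2-1 and SFTPC lie left of the dashed line at 4.93, and SOX9 and SOX2 lie farthest to the right.

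**Figure D4:**
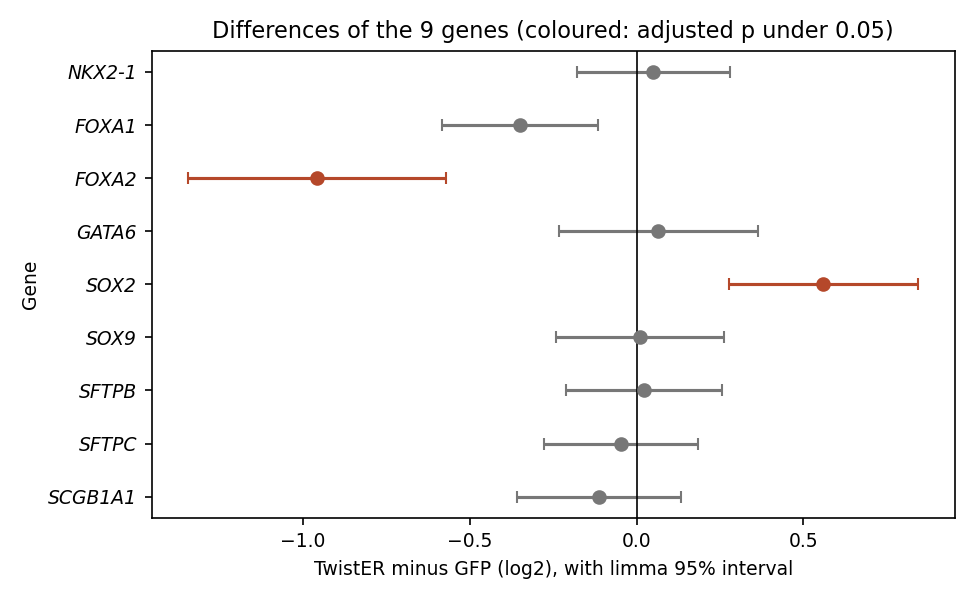
TwistER minus GFP (horizontal axis, log2) for the 9 genes with limma's 95% interval; coloured points have an adjusted p under 0.05. FOXA2 lies at -0.96 and SOX2 at 0.56, and the intervals of NKX2-1, GATA6, SOX9 and the 3 products span 0.

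The nearest protein-coding genes along the chromosomes were looked at on either side of the 9 genes. LOC124904962, on the higher-coordinate side of FOXA2, was not measured. Of the 17 measured neighbours 1 fell and 0 rose, and over all genes 8.83% passed. It was SLC39A11, a zinc transporter gene next to SOX9, at -1.05 ± 0.17 (limma adjusted p = 0.00639). PAX1, beside FOXA2, had a difference of 0.06 ± 0.22, and DNAJC19 and ATP11B, on either side of SOX2, had -0.12 ± 0.13 and -0.17 ± 0.13. The neighbours of FOXA1, MIPOL1 (-0.39 ± 0.15, adjusted p = 0.176) and TTC6 (-0.22 ± 0.11, adjusted p = 0.314), did not pass, nor did those of NKX2-1, MBIP (0.0003 ± 0.21) and NKX2-8 (-0.06 ± 0.13). The other 9 (MIB1 and CTAGE1 beside GATA6, KCNJ2 beside SOX9, USP39 and GNLY beside SFTPB, LGI3 and BMP1 beside SFTPC, ASRGL1 and AHNAK beside SCGB1A1) did not pass either, with differences from -0.38 for USP39 to 0.12 for GNLY.

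The genes whose values ran most like those of FOXA2 over the 6 arrays, among 16132 protein-coding genes, were CDC42SE2 (Pearson r = 0.991), SEC61A2 (0.990), PCED1B (0.989), EPB41 (0.988), a membrane skeleton protein, and SUSD4 (0.988). For SOX2 they were GOLPH3L (r = 0.996), APBB1 (0.995), the smooth muscle actin gene ACTA2 (0.991), PARP11 (0.987) and the zinc transporter gene SLC30A4 (0.985). Each r takes in the difference between the group means, so likeness over 6 arrays in 2 groups is a description. SEC61A2 (-0.31 ± 0.11, limma adjusted p = 0.129) and GOLPH3L (0.38 ± 0.11, adjusted p = 0.0719) did not pass the test between the lines, and the other 8 did. ACTA2 differed by 1.07 ± 0.16 and EPB41 by -0.83 ± 0.13.

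Among 28 measured GATA, NKX2 and SOX relatives of the members, 1 rose and 0 fell (3.57% and 0.0%, beside 4.72% and 4.11% of all genes), with a median of 0.06. It was SOX5, a SOX factor known from cartilage, which read 4.85, 5.08 and 4.94 in GFP and 5.72, 5.74 and 5.67 in TwistER (0.76 ± 0.11, limma adjusted p = 0.00329). Among 9 measured genes known as NKX2-1 targets in lung adenocarcinoma, 1 rose and 0 fell, with a median of -0.02. ROR1, a receptor kinase-like protein, was 0.49 ± 0.10 higher (adjusted p = 0.0200), and of the 6 arrays left out in turn only GFP replicate 1 kept that call (highest adjusted p without another array 0.0958).

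Of 38 measured other lung transcription factors, 18 had a mean below 4.93, and 31 did not pass. Of the rest 3 rose (7.89%, beside 4.72% of all genes) and 4 fell (10.5%, beside 4.11%), with a median of -0.02. NFIB, a nuclear factor I protein required for lung maturation, rose 1.91-fold (0.93 ± 0.11, limma adjusted p = 0.00144), and FOXP2, a forkhead factor of the distal lung, rose 1.76-fold (0.82 ± 0.13). FOXP2 was dim in both lines, at means of 3.98 in GFP and 4.80 in TwistER. NFIA rose by 0.98 ± 0.23, but lost its call without GFP replicate 2 or any TwistER array (highest adjusted p = 0.129). GRHL2 and EHF, both factors of epithelial identity, fell by the most (-4.40 ± 0.18 and -2.05 ± 0.29). The EHF means, 4.68 in GFP and 2.63 in TwistER, were dim in both lines. KLF4, of epithelial differentiation, fell by 0.68 on the log2 scale and MYB, of airway progenitors, by 0.77. Without GFP replicate 1, ELF3 (-0.94), FOXP1 (-0.50) and GRHL1 (-0.83) also passed, which made 7 falls. Calls grew over the whole series without that array, to 2773 genes from 1627. ELF3 (4.81 in GFP and 4.15 in TwistER) and GRHL1 (4.55 and 3.94) were dim in both lines.

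Genes of the signals that pattern lung endoderm included 4 rises and 0 falls among 18 measured (22.2% and 0.0%, beside 4.72% and 4.11% of all genes), with a median of 0.09. The Hedgehog receptor PTCH1 rose 2.78-fold (1.48 ± 0.20) and the Hedgehog-pathway factor GLI3 2.09-fold (1.06 ± 0.13). The retinoic acid receptor RARB rose 2.60-fold (1.38 ± 0.15) and ID2, which blocks helix-loop-helix factors and marks the distal tips, 5.15-fold (2.36 ± 0.13). Each had a limma adjusted p of 0.00212 or less. Without GFP replicate 1, BMP4 (-0.77, adjusted p = 0.00273) and RARG (-0.85, adjusted p = 0.0169) fell as well, where with all arrays they had adjusted p-values of 0.404 and 0.0835. Over all genes 2773 passed without that array, beside 1627 with all arrays.

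Most lists of markers of mature lung cell types were largely dim. It was otherwise for the alveolar type 1 and basal genes, where 6 of 12 and 2 of 8 had a mean below 4.93. For reference, 4.72% of all genes rose and 4.11% fell. Of 14 alveolar type 2 genes 1 rose and 2 fell, and 9 had a mean below 4.93. The Hedgehog-binding antagonist HHIP rose 4.45-fold (2.15 ± 0.12). The mucin MUC1 fell 2.45-fold (-1.29 ± 0.14), and the metal transporter SLC39A8 was -0.43 ± 0.10 lower, a call that failed when any array but GFP replicate 1 was dropped (highest limma adjusted p = 0.141) and under cyclic loess (0.0506). The alveolar type 2 products SFTPD (0.04 ± 0.16), ABCA3 (-0.06 ± 0.19) and NAPSA (-0.11 ± 0.17) did not pass. Of 12 alveolar type 1 genes 2 fell (16.7%) and 0 rose. They were GPRC5A, a receptor abundant in lung epithelium (-1.58 ± 0.28), and RTKN2 (-1.57 ± 0.18). Of 13 club cell genes none passed (0 rose, 0 fell in limma, and 1 had an unadjusted p under 0.05), 12 of them were dim, and SLPI, an antiprotease, had the largest difference (-0.53 ± 0.20, adjusted p = 0.156).

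Of the other airway lists, 2 of 7 goblet, 1 of 11 ciliated, 2 of 8 basal and 1 of 9 neuroendocrine genes fell, and 0 rose in each. AGR2, a protein disulfide isomerase of secretory cells, fell by 4.43 on the log2 scale, the calcium-binding protein S100A2 by 1.85, the deubiquitinase UCHL1 by 0.89 and the integrin ITGB4 by 1.16. ITGB4 lost its call without TwistER replicate 2 (limma adjusted p = 0.0525). The dynein DNAH5 (-0.67 ± 0.15) lost it without GFP replicate 3 or TwistER replicate 1 or 2 (up to 0.106), and CEACAM5 (-0.43 ± 0.11) when any array but GFP replicate 1 was dropped (up to 0.165), under second quantile normalization (0.0566), under cyclic loess (0.0555) and with a trended robust variance (0.0548). Both DNAH5 (means of 4.40 in GFP and 3.73 in TwistER) and CEACAM5 (3.77 and 3.34) lay under 4.93. None of 18 gut and liver endoderm genes passed (0 up, 0 down in limma, and 1 at an unadjusted p under 0.05), and their median difference was 0.07. HNF4G, a nuclear receptor, had the largest difference (0.70 ± 0.20, adjusted p = 0.0762), which became 0.89 and passed (0.0136) once GFP replicate 1 was dropped. Its means were dim (4.07 in GFP and 4.76 in TwistER), and 2773 genes passed without that array, beside 1627 with all. Over the 130 distinct genes measured in the 10 lung lists, 9 rose (6.92%) and 14 fell (10.8%), with a median of -0.02. Over all genes the shares were 4.72% and 4.11% and the median 0.01. Of these 130, 72 were below 4.93, and so were 7152 of the 18417 genes.

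**Figure D5:**
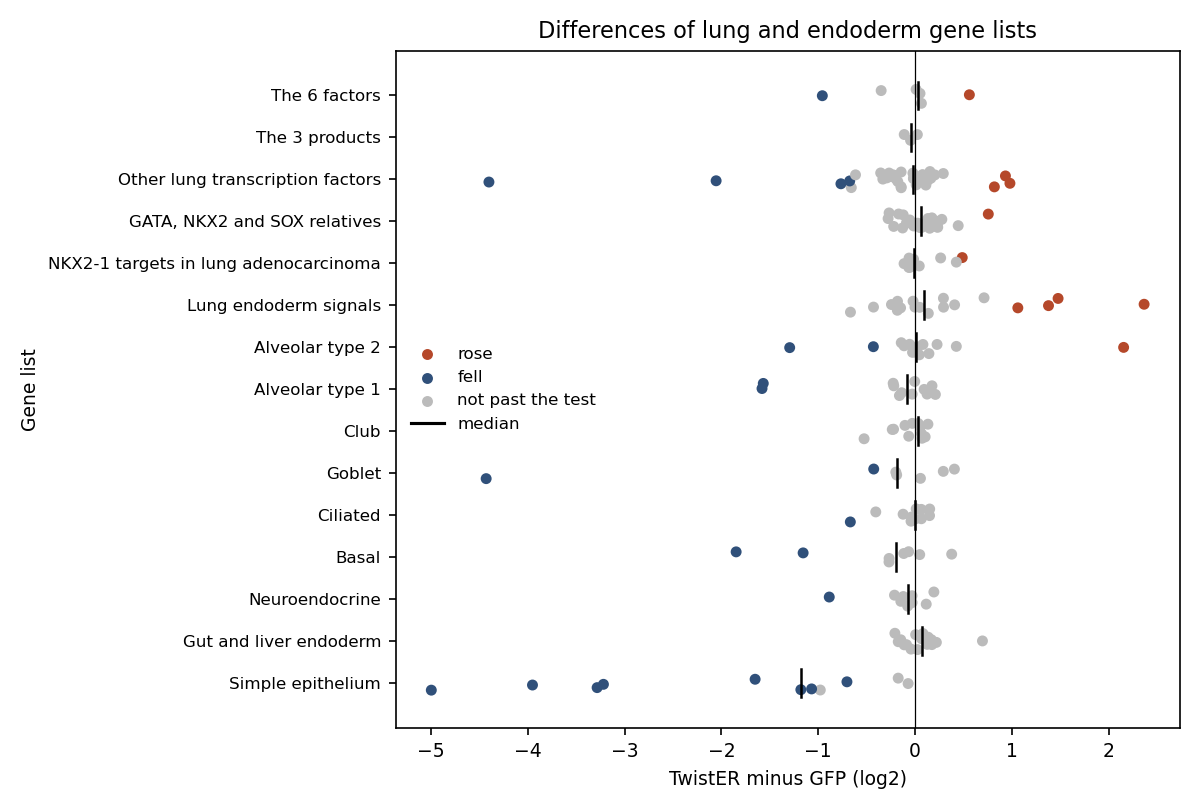
TwistER minus GFP (horizontal axis, log2) of each measured gene in the lung, endoderm and epithelial lists (rows), with black ticks at list medians; red points rose, blue points fell and grey points did not pass at a limma adjusted p under 0.05. Most lung lists centre near 0 with a few outlying genes, and the simple epithelium list has its median at -1.18.

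Markers of other cells that could be in a culture were measured beside these genes. Over all genes 4.72% rose and 4.11% fell. Of 11 simple epithelium genes, 8 fell (72.7%) and 0 rose (median -1.18): CDH1, EPCAM, KRT8, KRT19 (-3.22 ± 0.15), the claudins CLDN4 and CLDN7, the splicing factor ESRP2 and the small GTPase RAB25. The call on ESRP2 failed when any array but GFP replicate 1 was dropped (up to 0.144). KRT18 (-0.98 ± 0.33, limma adjusted p = 0.114) did not pass with all arrays and did without GFP replicate 1 (-1.40, adjusted p = 0.00192). For this list the log2 of the summed linear values was 12.99 to 13.06 in GFP and 10.76 to 10.79 in TwistER. Among 11 fibroblast markers 3 rose (27.3%) and 1 fell (9.09%), with sums of 8.55 to 8.84 and 8.68 to 8.76 that overlapped. COL3A1 rose by 2.13 ± 0.15, PDGFRA by 1.01 ± 0.13 and COL1A1 by 0.54 ± 0.13 (a call that failed when any array but GFP replicate 1 was dropped, highest limma adjusted p = 0.142), and LUM fell by 1.63. Of 9 endothelial markers, KDR (1.79 ± 0.12) and PECAM1 (0.61 ± 0.12) rose (22.2%), and the sums were 7.25 to 7.30 and 7.90 to 7.95. The other 7 did not pass and the list median was 0.07, so the sums do not show a rise across the list. PECAM1 had means under 4.93 in both lines (4.10 in GFP and 4.72 in TwistER). PECAM1 lost its call without GFP replicate 2 or TwistER replicate 1 or 3 (up to 0.0765), and with its 2 probe sets averaged (0.42, limma adjusted p = 0.0532), which left 1 rise. Of 8 leukocyte markers 0 rose and 0 fell in limma, and 0 had an unadjusted p under 0.05, with sums of 7.48 to 7.55 and 7.61 to 7.83. Without GFP replicate 1, PTPRC passed (0.48, adjusted p = 0.0407). As for KRT18, this came with a growth in calls over all genes, from 1627 to 2773. Values on this scale have no 0, and the part of such cells in the differences of FOXA2 and SOX2 was not tested.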

How the data were processed

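Gene expression in 6 H358 cultures was measured on an Affymetrix human gene array. The deposited log2 values hold 1 expression level per probe set; the submitters' processing notes name RMA, whose version and settings the sources used here do not give. RMA equalises the distributions of the arrays, so a shift of the whole transcriptome would not show. Of 33297 probe sets, 19460 had 1 gene symbol in the platform annotation, 1754 had several and 12083 were unnamed there. The brightest probe set per symbol gave 18417 genes. The members and lists were chosen with earlier results of these data known, and the lists rest on general knowledge. The comparison used limma 3.58.1 (R 4.3.3), a moderated fit of all 6 arrays with the group as its only term, two-sided, with Benjamini-Hochberg adjustment over all genes and a threshold of 0.05. List members without a probe set of their own symbol were not analysed here. On simulated data with 18417 genes, limma recovered 97% of genes shifted by 2 and 76% of those shifted by 1 (log2), with 4 false calls. Its noise was drawn independently for each gene and array, so no simulated array stood apart as GFP replicate 1 did. Smaller shifts, such as those of SOX2 and FOXA1, were not simulated. Named are the 9 genes, list members past the test or, where none passed, the largest difference, neighbours, the 5 genes most alike, and 7 check genes. HNF4G, BMP4 and others that passed without GFP replicate 1, and the type 2 products that did not pass, were named after their values were seen. Motif letters were widened after a first search. Alternatives were other normalizations, brightness filters, averaging of probe sets, variance models, weights for the arrays, a block for the replicate number, other thresholds and leaving out each array. Python 3.11.15, pandas 2.3.3 and matplotlib 3.10.9 were used for tables and plots.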

Additional observations from a re-analysis of the deposited data

How the results depend on the processing

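FOXA2 kept its direction and its call in each of the 14 fits that held it, with adjusted p-values of 0.00136 to 0.0384. It is under the 50th percentile of brightness, and 1 of the 3 members above that percentile passed there. The number of members past the test was 1 at a threshold of 0.01, and 1 to 3 with an array left out. With array weights 3268 genes passed, at 0.01 807, and 831 to 2773 with an array left out, the most without GFP replicate 1. Same-numbered GFP and TwistER arrays deviated together at r = 0.139, 0.015 and 0.157. Each TwistER array deviated most with the GFP array of its own number, while GFP replicate 2 did so with TwistER replicate 3 (0.04). These values do not settle whether the numbers pair the samples. With the replicate number as a block 1592 genes passed beside 1627, and 1 member, since SOX2 had an adjusted p of 0.0575. SLC39A8, CEACAM5, DNAH5, HHAT and NFIX also lost their calls under the block (0.0555 to 0.0717). FOXA1 passed with array weights (0.0206) and at a threshold of 0.10. Differences close to 0 turned sign: SFTPB to -0.0060, -0.0070 and -0.0097 under second quantile normalization, median centring and cyclic loess, and between -0.020 and 0.059 with an array left out; SOX9 to -0.020 with median centring, and between -0.036 and 0.066 with an array left out; GATA6 between -0.032 and 0.16 with an array left out. Beside 23 lung list genes past the test, the alternatives gave 17 to 29.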

Other observations

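Further genes of the Hedgehog pathway, a signal from lung epithelium to the mesenchyme around it, were looked at after the rises of PTCH1, GLI3 and HHIP had been seen. Of 15 measured, 4 rose and 0 fell, with a median of 0.08, also without GFP replicate 1. With all arrays these are 26.7% and 0.0%, beside 4.72% and 4.11% of all genes. PTCH1, GLI3 and HHIP are among the 4, so the count rests largely on the genes that prompted the list. The fourth was HHAT, which attaches the lipid to Hedgehog ligands (0.48 ± 0.12, limma adjusted p = 0.0457), and its call failed when any array but GFP replicate 1 was dropped (up to 0.185), under second quantile normalization, median centring and cyclic loess. The ligands SHH (0.05 ± 0.11) and IHH (0.03 ± 0.15), the transducer SMO (-0.09 ± 0.11) and the factors GLI1 (-0.01 ± 0.11) and GLI2 (-0.0014 ± 0.16) did not pass. GLI1 and GLI2 were dim in both lines, at means of 4.40 and 4.61 in GFP and 4.39 and 4.61 in TwistER.

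All 4 nuclear factor I genes were then described in the same way, chosen after NFIA and NFIB had been seen. NFIX rose by 0.52 ± 0.13 (limma adjusted p = 0.0419), a call that failed when any array but GFP replicate 1 was dropped (up to 0.173). For NFIC the value was 0.44 ± 0.25 and missed the threshold (adjusted p = 0.366). Thus 3 of 4 rose, beside 4.72% of all genes. NFIA and NFIB are among the 3, so the count rests largely on the genes that prompted the list. Without GFP replicate 2 or any one TwistER array, 1 of the 4 passed.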
